A study of Mus musculus with 2 samples.

Results

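The genes described here are 31 protein-coding genes of cholesterol metabolism in mouse brain. They comprise 18 enzymes of cholesterol synthesis, 5 regulators of that synthesis, and 8 genes of cholesterol transport, storage and turnover. They were chosen by gene name, from a list of the pathway, and all 31 are among the 13381 genes of the deposited gene table. All 31 were also among the 11969 genes that reached 1 FPKM in at least 1 library. FPKM is fragments per kilobase of transcript, scaled to the mapped fragments of a library, so that levels can be compared between genes of different length. The study asked how a deficiency of miR-7, a small RNA that represses messenger RNAs, changes brain inflammation caused by lipopolysaccharide (LPS), which comes from the outer membrane of bacteria. RNA from brain tissue was measured in 2 libraries, 1 titled miR-7KD (animal number 3) and 1 titled WT (animal number 7), both from C57BL/6J mice.

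The labels give an age of 6 to 8 weeks for both animals, whereas the methods of the study give 8 to 10 weeks. According to those methods, both genotypes received LPS at 2.5 mg/kg into the abdomen and brain tissue was taken after 12 h, but the labels do not name LPS. No vehicle library was analysed here, so that the LPS exposure is shared by both libraries and its own effect was not measured. How the miR-7 deficiency was made, and in which cells it acts, was not found in the labels or the methods. Titles and genotype fields disagree, since the genotype is given as wild type under the miR-7KD title and as miR-7 KD under the WT title. Each library is therefore called by its title, and each direction below would turn if the genotype fields were the right ones. Each description calls its sample representative of 3 replicates, and pooling is not stated. With 1 library per title there is no replicate, hence no error and no test, and every difference describes these libraries only. In bulk tissue, fewer cells of a type and less RNA per cell cannot be told apart.

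Cholesterol is built from acetyl-CoA through mevalonate, isoprenoids, squalene and lanosterol, by enzymes of the cytosol, peroxisomes and endoplasmic reticulum. When membranes of the endoplasmic reticulum run low in sterol, SCAP escorts SREBP2 to the Golgi apparatus, where it is cut to a transcription factor that switches on most of these enzymes. INSIG proteins hold the complex back when sterol is plentiful. Since the blood-brain barrier keeps out plasma lipoproteins, the brain makes its own cholesterol, largely for myelin. Astrocytes pass it to neurons on apolipoprotein E, and neurons remove the excess by turning it into 24S-hydroxycholesterol.

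The study turns on miR-7, so the mature mouse miR-7 sequences are shown first, from RefSeq on build GRCm38.p6. They are written 5′ to 3′ with the seed (bases 2 to 8), which pairs with target RNAs, in capitals.
mmu-miR-7a-5p: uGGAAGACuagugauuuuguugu
mmu-miR-7b-5p: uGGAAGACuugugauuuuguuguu
mmu-miR-7a-2-3p: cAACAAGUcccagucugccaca
mmu-miR-7b-3p: cAACAAGUcacagccagccuca
mmu-miR-7a-1-3p: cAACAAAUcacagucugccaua
The first pair shares 1 seed, whose full complement in a target is GTCTTCC. The next pair shares a seed complementary to ACTTGTT, and the last arm has a seed complementary to ATTTGTT. These letters were searched on the sense strand of the longest 3′-UTR of each gene in GENCODE M21, which was found for 31 of 31 members. GTCTTCC was in 5 members (16.1%), namely Lss, Hsd17b7, Srebf1, Abca1 and Soat1, and in 14.2% of 11883 genes at 1 FPKM or more. ACTTGTT was in 5 members (16.1%), namely Hsd17b7, Sc5d, Srebf2, Npc1 and Soat1, and in 14.9% of genes. ATTTGTT was in 4 members (12.9%), namely Idi1, Sc5d, Abca1 and Soat1, and in 21.1% of genes. The Sc5d matches lie beyond the 3′ end of the deposited transcript Sc5d-201, which spans chr9:42254177-42264300 on the minus strand. The FPKM of Sc5d therefore belongs to a shorter 3′-UTR without these matches. The median 3′-UTR was 1004 bases long in the members and 1234 bases in all genes. A match is a stretch of letters and no evidence of binding.

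The matches of Hsd17b7 and Lss, the members over 1.5-fold higher in the miR-7KD-titled library, are printed below with 30 bases of 3′-UTR each, 5′ to 3′ on the gene's strand, and the matched bases in capitals. In Hsd17b7, on chromosome 1 of GRCm38, the first match (ACTTGTT) takes chr1:169951324-169951330 (minus strand) and starts at base 1703 of a 3′-UTR of 3498 bases. The second (GTCTTCC) takes chr1:169949893-169949899 and starts at base 3134. In Lss the match (GTCTTCC) takes chr10:76554537-76554543 (plus strand) and starts at base 1469 of 2411. This 3′-UTR is that of Lss-001, which was at 2.12 and 1.98 FPKM in the miR-7KD-titled and WT-titled libraries (log2 ratio 0.10). The ratio over 1.5-fold is that of the Lss gene value.
Hsd17b7, first match: ttattagctctACTTGTTttaattatcttt
Hsd17b7, second match: ctaagtaacttGTCTTCCttgtattgatag
Lss, match: cctgacccataGTCTTCCctccgacaagca
Hsd17b7 thus holds a match to both of the first seed groups. So does Soat1, which holds ATTTGTT as well and had a log2 ratio of -0.10. Srebf1, Abca1 and Soat1 hold the same GTCTTCC, and the ratios of their gene values are given below. The match of Srebf1 was found in the 3′-UTR of Srebf1-006, a minor transcript at 0.848 and 0.0902 FPKM (log2 ratio 2.32). Both values are below 1 FPKM, and the 3′-UTRs of other Srebf1 transcripts were not searched. Hmgcs1 and Cyp51, which had the highest ratios in the opposite direction, hold none of the letters searched. They are among 22 members without any of these letters, so lacking a match does not set Hmgcs1 and Cyp51 apart. The printed matches were picked by the ratios of their genes, and a link between matches and ratios was not tested.

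SREBP2 acts at promoters, together with NF-Y, which binds CCAAT, and Sp1, which binds GGGCGG. Promoter windows of 300 bases that span the gene start, from RefSeq on GRCm38.p6, were matched for 26 members with 36 promoters. Fdft1, Fdps, Sqle, Abcg1 and Npc1 were not matched. Both strands were searched for CACCCCAC (a form of the sterol regulatory element), for the NF-Y and Sp1 letters just given, and for the E-box CACGTG, which SREBP1 can also bind. CACCCCAC was in the promoters of 2 of 26 members (7.69%), Acat2 and Hmgcs1, and in those of 3.30% of 27025 genes. CCAAT was in 21 members (80.8%), including 14 of 15 synthesis enzymes, against 41.1% of genes. GGGCGG was in 24 members (92.3%), including 14 of 15 synthesis enzymes, against 38.2% of genes. CACGTG was in 6 members (23.1%), namely Hsd17b7, Sc5d, Dhcr7, Scap, Insig1 and Abca1, against 8.09% of genes. Genes with several promoters had more chances to match, and the members were chosen as a pathway. The 27025 genes were not limited to those at 1 FPKM or more, a level that all members reached, so these shares compare unlike sets. Both holders of CACCCCAC and Hsd17b7 are shown from base -200 to base -1 before the start, on the gene's strand. Capitals mark the motifs, where ATTGG is the NF-Y box read on the other strand, as CCGCCC is for Sp1, and no capital stretches overlap.
Hmgcs1, chr13:119690151-119690350, plus strand: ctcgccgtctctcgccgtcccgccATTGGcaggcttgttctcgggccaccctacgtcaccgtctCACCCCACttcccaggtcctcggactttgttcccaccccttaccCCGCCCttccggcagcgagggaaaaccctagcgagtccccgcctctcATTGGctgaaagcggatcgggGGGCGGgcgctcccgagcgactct
Acat2, chr17:12960726-12960925, minus strand: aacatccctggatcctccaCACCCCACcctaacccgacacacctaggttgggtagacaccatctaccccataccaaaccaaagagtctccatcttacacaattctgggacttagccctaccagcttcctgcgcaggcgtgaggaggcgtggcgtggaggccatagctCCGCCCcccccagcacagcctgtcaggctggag
Hsd17b7, chr1:169969206-169969405, minus strand: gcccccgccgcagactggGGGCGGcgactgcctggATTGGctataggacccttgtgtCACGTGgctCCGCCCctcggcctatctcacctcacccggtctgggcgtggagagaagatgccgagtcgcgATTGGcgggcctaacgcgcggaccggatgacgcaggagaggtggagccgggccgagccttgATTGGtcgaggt
In Hmgcs1 the CACCCCAC starts at -136, between CCAAT boxes at -176 and -45, and in Acat2 it starts at -181. Hsd17b7 has CCAAT at -165, -73 and -12 and CACGTG at -143. The motif lists of Hmgcs1 and Acat2 therefore overlap, while the FPKM values of these genes given below differ in how far the libraries lie apart.

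The cholesterol genes spanned from 1.16 to 162 FPKM, and most were at nearly the same level in both libraries. Apoe was the highest of the 31 by the mean of both libraries, followed by Hmgcs1, Cyp46a1 and Fdft1, and Soat1, Hsd17b7 and Lss were the lowest. The log2 ratio, with 0.1 FPKM added before division (so that ratios of low genes are understated), was within 1.25-fold for 25 of 31 members (80.6%), against 66.0% of all genes at 1 FPKM or more. It was within 1.1-fold for 19 members (61.3%), against 40.9% of all genes. At 2-fold, 1 member was higher in the miR-7KD-titled library (Hsd17b7), where 6.01% of all genes were, and 1 was lower (Hmgcs1), where 5.58% were. A count of 1 in 31 each way is near those backgrounds. At 1.5-fold only Lss was added on the higher side, and 20.1% of all genes passed 1.5-fold in either direction. The median log2 ratio was 0.00 for the members and -0.01 for all genes, with 16 members above 0 and 15 below.

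**Figure D1:**
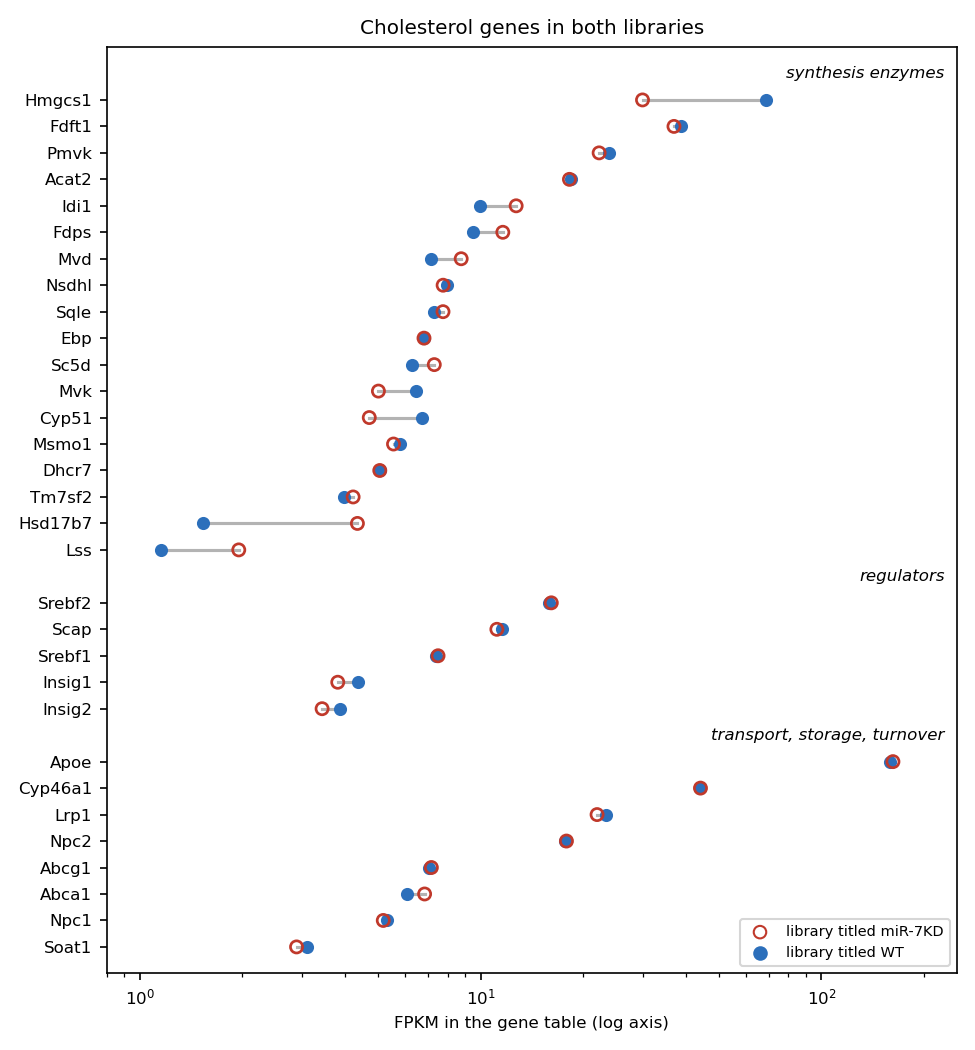
FPKM of the 31 cholesterol genes in the miR-7KD-titled library (open red circles) and the WT-titled library (filled blue circles), 1 gene per line on a log axis, with a grey line joining both values. The circles overlap or nearly touch for most genes, and the long lines are those of Hmgcs1 (29.9 and 68.9 FPKM) and Hsd17b7 (4.35 and 1.53 FPKM).

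In the first steps of synthesis, Hmgcs1 stood apart. Acat2, which joins acetyl-CoA units to acetoacetyl-CoA, was at 18.2 FPKM in the miR-7KD-titled library and 18.4 FPKM in the WT-titled library (log2 ratio -0.02). Hmgcs1, the cytosolic HMG-CoA synthase that makes the next intermediate, was at 29.9 and 68.9 FPKM, in the same order of libraries. It was thus 2.31-fold higher in the WT-titled library (log2 ratio -1.20), and 9.21% of all genes had as large a ratio in either direction. Hmgcs1 (ENSMUSG00000093930.1) lies at chr13:119690462-119708086 on the plus strand of GRCm38 and has 11 exons. In the WT-titled library it was the highest synthesis enzyme, and in the miR-7KD-titled library it was below Fdft1. The summed level of the synthesis enzymes was 201 and 236 FPKM with Hmgcs1, and 171 and 167 FPKM without it.

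The enzymes that carry mevalonate on to farnesyl pyrophosphate differed by less. Mvk, mevalonate kinase, was at 5.01 and 6.45 FPKM (log2 ratio -0.36). Pmvk, which adds the next phosphate, was at 22.3 and 23.7 FPKM (-0.09). Mvd, which removes the carboxyl group to give isopentenyl pyrophosphate, was at 8.77 and 7.16 FPKM (0.29). Neighbouring steps of the same route thus lay on opposite sides of a ratio of 1. Idi1, the isopentenyl isomerase, was at 12.7 and 9.98 FPKM (0.35). Fdps, farnesyl diphosphate synthase, was at 11.6 and 9.52 FPKM (0.28). Mvd, Idi1 and Fdps were each slightly higher in the miR-7KD-titled library, under 1.5-fold by gene value. With unannotated transcripts added to gene values, Fdps was at 16.1 and 10.7 FPKM (0.59), 1.51-fold higher. Mvk was then at 8.22 and 12.6 FPKM (-0.61), 1.54-fold higher in the WT-titled library. With them added to listed transcripts instead, the log2 ratios were 0.41 for Fdps and -0.49 for Mvk.

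From squalene onwards, the members with ratios over 1.5-fold were Hsd17b7 and Lss, the synthesis enzymes with the lowest levels. Fdft1, squalene synthase, was at 36.9 and 38.8 FPKM (log2 ratio -0.07). Sqle, squalene epoxidase and a rate-limiting enzyme, was at 7.76 and 7.31 FPKM (0.08). Both steps that make and oxidise squalene were thus nearly alike. Lss, lanosterol synthase (chr10:76531588-76557138, plus strand), which closes the sterol rings, was at 1.95 and 1.16 FPKM. This is 1.69-fold higher in the miR-7KD-titled library (log2 ratio 0.71). Cyp51, the lanosterol demethylase, was at 4.71 and 6.72 FPKM, 1.43-fold higher in the WT-titled library (log2 ratio -0.50). Lss and Cyp51, which act one after the other, therefore differed in direction.

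The remaining enzymes turn the demethylated sterol into cholesterol. Tm7sf2, a sterol reductase, was at 4.22 and 3.99 FPKM (log2 ratio 0.08). Msmo1, the methylsterol monooxygenase, was at 5.55 and 5.81 FPKM (-0.07), and Nsdhl, the sterol dehydrogenase that works with it, was at 7.76 and 7.94 FPKM (-0.03). Hsd17b7, the keto-reductase that completes each round of demethylation, was at 4.35 FPKM in the miR-7KD-titled library and 1.53 FPKM in the WT-titled library. It was thus 2.85-fold higher in the former (log2 ratio 1.45), and 7.24% of all genes had as large a ratio in either direction. Hsd17b7 (ENSMUSG00000026675.12) lies at chr1:169949535-169969241 on the minus strand and has 9 exons. Msmo1 and Nsdhl, its partners in demethylation, were within 1.1-fold. Ebp, the sterol isomerase, was at 6.82 FPKM in both libraries (0.00). Sc5d, the desaturase of the following step, was at 7.31 and 6.28 FPKM (0.22). Dhcr7, the last enzyme of the Kandutsch-Russell branch, was at 5.06 and 5.08 FPKM (-0.01), so that the end of the route was level between the libraries. Of the 18 synthesis enzymes, 12 were within 1.25-fold, and the other 6 were Hmgcs1, Hsd17b7, Lss, Cyp51, Mvk and Idi1.

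In the gene table, all 5 regulators were within 1.25-fold. Srebf2, which encodes SREBP2, was at 16.1 and 15.8 FPKM (log2 ratio 0.03). Srebf1, whose SREBP1 products favour fatty acid genes, was at 7.50 and 7.39 FPKM (0.02). Scap, the sterol-sensing escort, was at 11.2 and 11.6 FPKM (-0.05). These levels of messenger RNA do not measure the cut, active form of the SREBP proteins. Insig1, itself a well-known target of SREBP, was at 3.81 and 4.37 FPKM (-0.20). With unannotated transcripts added, Insig1 was at 12.4 and 10.9 FPKM (0.18), the opposite direction. Insig2, the other anchor, was at 3.43 and 3.88 FPKM (-0.17). Its listed transcripts, however, summed to 4.59 and 8.32 FPKM (-0.84), and Scap was at 15.5 and 12.4 FPKM (0.32) with unannotated transcripts added. The median log2 ratio of the regulators was -0.05.

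The 8 genes of transport, storage and turnover were also all within 1.25-fold. Apoe, the main lipoprotein of brain, was at 162 and 159 FPKM (log2 ratio 0.03). Abca1 and Abcg1, transporters that load lipoproteins with cholesterol, were at 6.85 and 6.07 FPKM (0.17) and at 7.17 and 7.07 FPKM (0.02). Lrp1, a large receptor that takes up apolipoprotein E particles, was at 22.0 and 23.3 FPKM (-0.09). Abca1 had the largest ratio of these 8 genes. Cyp46a1, the neuronal 24-hydroxylase that starts removal from brain, was at 44.2 and 44.1 FPKM (0.00). Npc1 and Npc2, which hand cholesterol out of lysosomes, were at 5.18 and 5.31 FPKM (-0.04) and at 17.9 and 17.7 FPKM (0.02). Soat1, which esterifies cholesterol for storage, was at 2.88 and 3.09 FPKM (-0.10). The median absolute log2 ratio was 0.0323 in these 8 genes, against 0.154 in the synthesis enzymes and 0.188 in all genes.

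**Figure D2:**
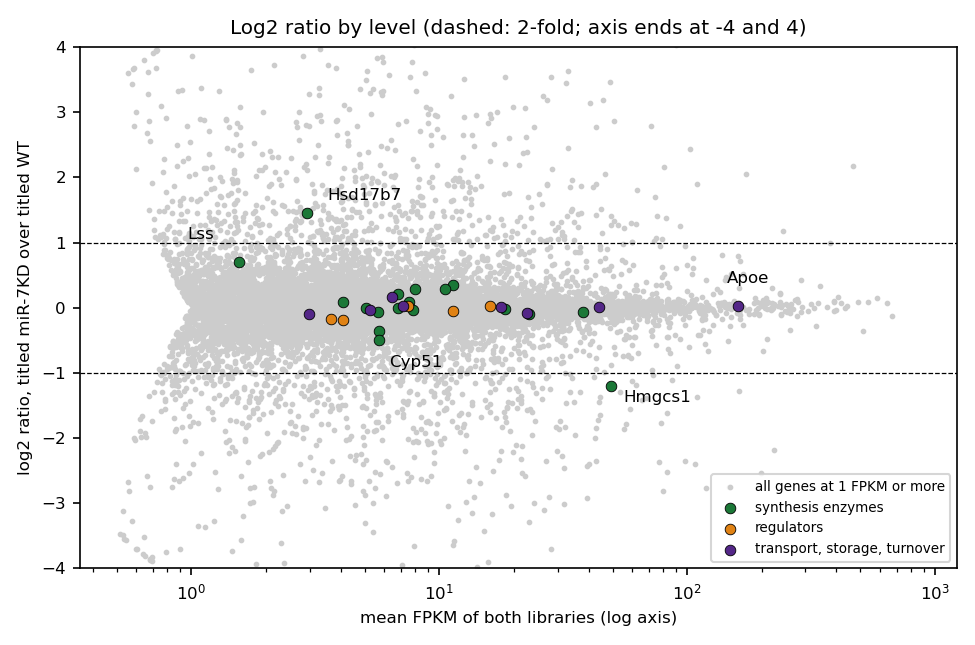
Log2 ratio (miR-7KD-titled over WT-titled library) against the mean FPKM of both libraries on a log axis, for all genes at 1 FPKM or more (grey) and the cholesterol genes (coloured by role), with dashed lines at 2-fold and genes beyond -4 or 4 not drawn. Only Hsd17b7 (1.45) and Hmgcs1 (-1.20) lie outside the dashed lines among the cholesterol genes.

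The closeness of the members was set beside that of genes of similar level and of similar exon number. Among 10161 genes in the range of the members' levels, 68.1% were within 1.25-fold and the median absolute log2 ratio was 0.173, compared with 80.6% and 0.0844 in the members. Genes with few exons differed more between these libraries, as 57.2% of genes with 1 exon and 32.5% of those with 2 to 3 exons passed 2-fold in either direction. No member has fewer than 4 exons, and the median was 10 exons in members and 9 in all genes. In the class of 4 to 7 exons, 9 members had a median absolute log2 ratio of 0.0923, against 0.232 in 3429 genes. In the class of 8 to 12 exons, which holds Hmgcs1 and Hsd17b7, 12 members had 0.185, against 0.179 in 3124 genes. In the class of 13 to 20 exons, 4 members had 0.0206, against 0.152, and in that of 21 or more exons, 6 members had 0.0690, against 0.136. The members were thus closer together than other genes of their class in 3 of these 4 classes. The part of exon number in the members' ratios was not tested.

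Gene values that matched could hold transcripts that did not. The transcript table lists 57 transcripts of the members, of which 48 reached 1 FPKM. Of these, 6 were at least 2-fold higher in the miR-7KD-titled library, where 12% of 18988 transcripts of all genes were, and 7 were at least 2-fold lower, where 12.2% were. Among the 12 members with several listed transcripts and a gene ratio under 2-fold, 4 (33.3%) held a transcript that reached 1 FPKM and passed 2-fold, namely Apoe, Dhcr7, Insig2 and Sqle. Among all such genes it was 1976 of 4701 (42.0%), so the members did not exceed the background. The gene value equals the sum of its transcripts (within 0.0001 FPKM) in only 6 members, all with 1 listed transcript, so gene and transcript values are not on 1 additive scale.

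Apoe gave the clearest example. Apoe-001 was at 110 FPKM in the miR-7KD-titled library and 176 FPKM in the WT-titled library, and Apoe-006 was at 90.3 and 12.5 FPKM. Apoe-003 was at 105 and 110 FPKM, and the other 4 transcripts were each below 18 FPKM. The higher Apoe-006 in the miR-7KD-titled library thus stood beside a lower Apoe-001, at a level gene value. For Dhcr7, Dhcr7-201 was at 7.30 and 0.685 FPKM, whereas Dhcr7-009 was at 2.94 and 9.23 FPKM. The leading Dhcr7 transcript therefore differed between the libraries, with 67.4% of the summed transcript FPKM for Dhcr7-201 in the miR-7KD-titled library and 83.2% for Dhcr7-009 in the other. For Insig2, Insig2-002 was at 4.08 and 2.68 FPKM, while Insig2-001 and Insig2-005 were listed at 0 in the miR-7KD-titled library and at 2.10 and 1.76 FPKM in the WT-titled library. Sqle-003, a minor transcript, was at 1.32 and 0.542 FPKM, beside Sqle-001 at 14.1 and 14.0 FPKM. Since these transcripts overlap, how fragments were split among them is an estimate, and its error was not measured.

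**Figure D3:**
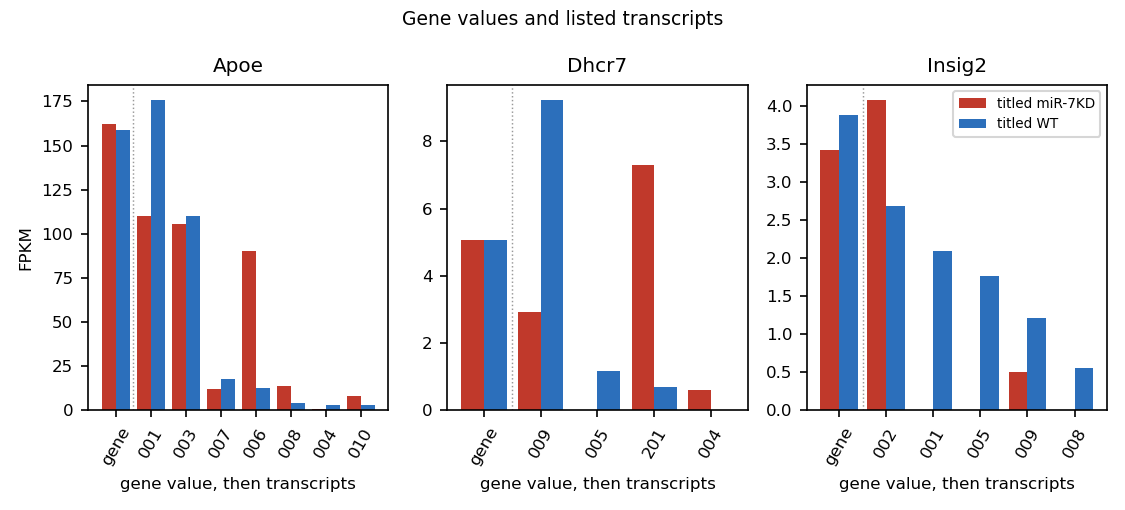
FPKM of the gene value (leftmost pair of bars) and of each listed transcript, by transcript number, for Apoe, Dhcr7 and Insig2 in the miR-7KD-titled library (red) and the WT-titled library (blue), with no error bars because there is 1 library per title. The gene bars are nearly level for Apoe and Dhcr7, while Apoe-006 (90.3 and 12.5 FPKM) and Dhcr7-201 (7.30 and 0.685 FPKM) are far higher in the miR-7KD-titled library.

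Unannotated transcripts that overlap a member on its strand, are listed in a separate deposited table. There were 13 of them over 11 members, and Hsd17b7 had none. Of the 13, 4 were at least 2-fold higher in the miR-7KD-titled library, where 30.3% of 10238 unannotated transcripts were, and 0 were at least 2-fold lower, where 24.1% were. The count of 4 higher in 13 is near the background. The unannotated transcripts ended the call of Hmgcs1, and took Lss past 2-fold when added to gene values. Added to listed transcripts instead, they left Lss under 2-fold (log2 ratio 0.95). Over Hmgcs1, 1 such transcript of 11 exons was at 10.1 and 13.0 FPKM and another at 2.70 and 1.27 FPKM. With both added, Hmgcs1 was at 42.6 and 83.2 FPKM, 1.95-fold higher in the WT-titled library (log2 ratio -0.96), which is under 2-fold. Over Lss, a transcript of 21 exons was at 2.91 and 0.578 FPKM. With it, Lss was at 4.86 and 1.73 FPKM, 2.80-fold higher in the miR-7KD-titled library (log2 ratio 1.44). Without the gene table, the listed transcript Lss-001 alone was at 2.12 and 1.98 FPKM (0.10), so that Lss ranged from 0.10 to 1.44 with the table used. Hsd17b7-001, the listed transcript of Hsd17b7, was at 4.75 and 1.55 FPKM (1.55), and Hsd17b7 stayed past 2-fold under every scaling, pseudocount and table tried. Reads of a gene on the other strand cannot be told apart where the strand of the library is not stated. Such a gene overlaps 8 members in GENCODE M21, among them Hmgcs1 (Gm48342) and Lss (4930483K19Rik), but not Hsd17b7. On the same strand, Gm43738 overlaps Fdps and Vps51 overlaps Tm7sf2.

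**Figure D4:**
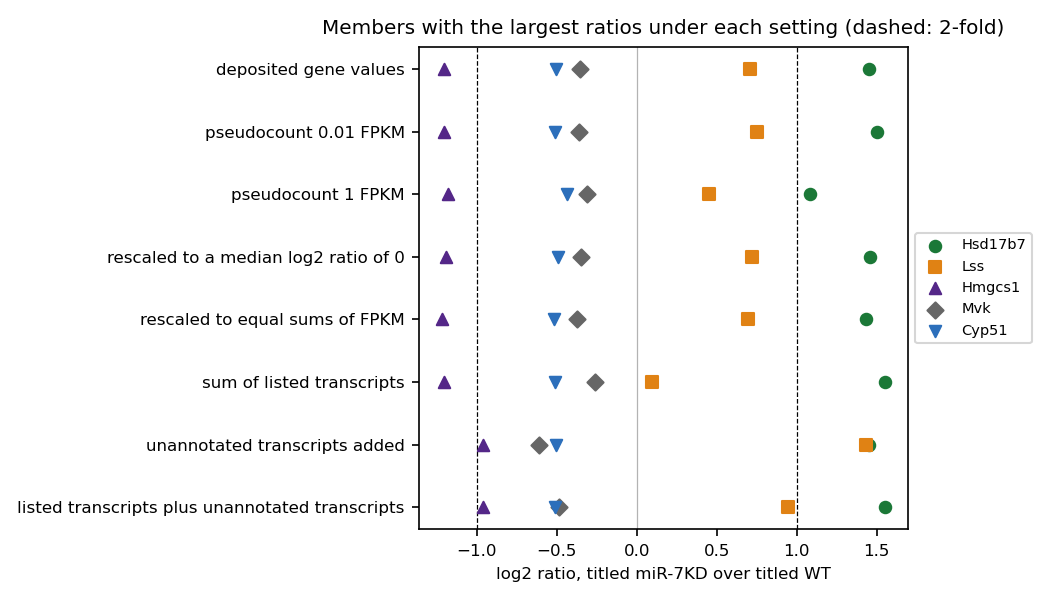
Log2 ratio (miR-7KD-titled over WT-titled library) of the 5 members with the largest ratios under the deposited gene values and 7 other settings, with dashed lines at 2-fold. Hsd17b7 stays right of the dashed line (1.08 to 1.55), Hmgcs1 lies at -0.96 once unannotated transcripts are added, and Lss moves between 0.10 and 1.44.

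Other genes of the pathway were taken from a list of 39, of which 38 were in the table (Ch25h was not listed) and 36 reached 1 FPKM. Of these 36, 3 were at least 2-fold higher in the miR-7KD-titled library and 0 were lower, with a median log2 ratio of 0.02. Among all genes at 1 FPKM or more, 6.01% were higher and 5.58% were lower by this measure. Rnf139, a ubiquitin ligase of the endoplasmic reticulum, was at 6.05 and 0.0153 FPKM (log2 ratio 5.74). Lpl, lipoprotein lipase, was at 5.27 and 1.85 FPKM, 2.84-fold higher. Lcat, which esterifies cholesterol on lipoproteins, was at 13.3 and 6.25 FPKM, 2.13-fold higher. All 3 act outside the enzyme steps of synthesis. The part of exon number in these ratios was not tested.

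Some markers of the cells that make and receive brain cholesterol differed between the libraries. At 2-fold, 6.01% of all genes were higher in the miR-7KD-titled library and 5.58% were lower. Of 7 astrocyte markers, 2 were at least 2-fold lower in the miR-7KD-titled library, Slc1a2 (24.5 and 141 FPKM) and Gja1 (1.15 and 46.5 FPKM). The summed level of the list was 404 and 594 FPKM with these 2 included, while its median log2 ratio was -0.07. The other 5 astrocyte markers were under 2-fold, as was Apoe. Of 7 oligodendrocyte markers, 1 was at least 2-fold higher, Cldn11 (131 and 29.3 FPKM), and the list summed to 548 and 422 FPKM with it and 416.9 and 392.2 FPKM without it. Of 6 neuronal markers, 0 passed 2-fold in either direction, at sums of 611 and 616 FPKM and log2 ratios from -0.89 (Slc17a7) to 0.31. Microglial markers (1 of 6 lower) summed to 75.8 and 77.4 FPKM, of which C1qa alone gave 57.3 and 58.0 FPKM. The log2 ratios of the microglial list ran from -4.74 (Cx3cr1) to 0.92 (P2ry12), with a median of 0.18. Endothelial markers (1 of 4 higher) summed to 40.7 and 14.5 FPKM, with a median log2 ratio of 0.14. The higher one was Cldn5, at 24.7 FPKM in the miR-7KD-titled library and listed at 0 in the WT-titled library. Markers of choroid plexus and blood had 0 of 3 past 2-fold each. The part of cell composition in the ratios of Hmgcs1 and Hsd17b7 was not tested. Genes with few exons differed more between these libraries, as given above, and the part of exon number in the marker ratios was not tested. The labelled extraction refers to retinas, while brain is the labelled tissue, and the retina markers Opn1sw and Crx were not listed in the gene table, while another, Rlbp1, was at 1.54 and 1.80 FPKM. Both libraries had like totals, with sums of 164811 and 162981 FPKM over the gene table, of which the members made up 0.310% and 0.334%, but their read depth is unknown.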

How the data were processed

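RNA of brain tissue was measured in 2 libraries, and the authors deposited FPKM values for annotated genes, annotated transcripts, unannotated genes and unannotated transcripts. The study's text calls the measurement a cDNA chip array, whereas the labels describe sequencing libraries. The submitters' processing notes name Bowtie 0.12.2 and mm8, but the positions are those of GRCm38 (all 31 members matched GENCODE M21 genes at the same place), and no source used here names the software behind the FPKM values. The lowest maximum over both libraries of any gene listed was 0.501 FPKM. Depth is unknown, so no counting interval is given.

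Each column's number was matched to the animal number in a title. Log2 ratios were taken as log2((FPKM titled miR-7KD + 0.1)/(FPKM titled WT + 0.1)) for genes that reached 1 FPKM in either library, with a threshold of 2-fold. Fold values in the text are ratios of the deposited FPKM. No test was made, because there is 1 library per title. Members and lists were chosen with earlier results of these data known. Every member is named. Of the other pathway genes those past 2-fold are named, and the named transcripts and markers were chosen after their values were seen. Some items are not reported here. Alternatives were pseudocounts of 0.01 and 1 FPKM, rescaling to a median log2 ratio of 0 or to equal sums, other minimum levels and thresholds, leaving out genes at 0, sums of listed transcripts, and adding unannotated transcripts of the same strand. Adding unannotated to listed transcripts was chosen after seeing the data. The table of unannotated genes was not used. Scripts were tested on simulated data and run with Python 3.11.15, numpy 2.4.6, pandas 2.3.3 and matplotlib 3.10.9.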

Additional observations from a re-analysis of the deposited data

Results flagged for a closer look

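Unannotated transcripts were outside the main comparison, and 4 of the 13 that overlap a cholesterol gene on its strand were at least 2-fold higher in the miR-7KD-titled library, while 0 were at least 2-fold lower. Over all 10238 unannotated transcripts, 30.3% were higher and 24.1% lower by this measure. The count of 4 higher in 13 is thus near the background. Over Scap, a transcript of 22 exons was at 4.35 FPKM in the miR-7KD-titled library and 0.814 FPKM in the WT-titled library (log2 ratio 2.28). Over Lss, a transcript of 21 exons was at 2.91 and 0.578 FPKM (2.15). Over Fdps, a transcript of 10 exons was at 4.48 and 1.14 FPKM (1.88). Over Hmgcs1, the minor of the pair was at 2.70 and 1.27 FPKM (1.03), opposite to the gene value of Hmgcs1. With no replicate these are values of these libraries, and the cause was not tested.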

How the results depend on the processing

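The main counts were 1 member at least 2-fold higher (Hsd17b7) and 1 at least 2-fold lower (Hmgcs1). The count of members higher was 0 at a minimum of 5 FPKM, 2 at a 1.5-fold threshold and 0 at a 3-fold threshold. It was 2 with unannotated transcripts added to gene values and 1 with them added to listed transcripts. The count of members lower was 0 at a 3-fold threshold and 0 with unannotated transcripts added, whether to gene values or to listed transcripts. The median log2 ratio of the regulators moved from -0.05 to 0.0518 when unannotated transcripts were added in either way. No single member past 2-fold changed direction. Of 31 members, 23 kept their sign under the 7 alternatives that recompute a ratio. The other 8, all within 1.25-fold by gene value, did not (Tm7sf2, Ebp, Dhcr7, Srebf1, Scap, Insig1, Cyp46a1, Npc2). Insig2 moved from -0.17 to -0.84 with listed transcripts summed. Rescaling shifted log2 ratios by 0.01 (median) or -0.02 (sums). No paired analysis was possible because there is 1 library per title. Read depth is unknown, so the error of low values such as those of Lss and Hsd17b7 in the WT-titled library could not be given.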

Other observations

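Fatty acid synthesis, the other lipid route under SREBP control, was looked at with a list of 14 genes chosen after the values of the cholesterol genes were known. Of these genes, 1 was at least 2-fold higher in the miR-7KD-titled library and 2 were at least 2-fold lower, with a median log2 ratio of -0.09. Among all genes at 1 FPKM or more, 6.01% were higher and 5.58% were lower. Scd1, a desaturase that makes monounsaturated fatty acids, was at 49.3 FPKM in the miR-7KD-titled library and 5.31 FPKM in the WT-titled library, 9.27-fold higher. Its paralog Scd2, the abundant form in brain, was at 218 and 217 FPKM. The related genes are similar in sequence, and how fragments shared by both were counted is not stated. Me1, malic enzyme, which supplies NADPH for lipid synthesis, was at 6.31 and 15.2 FPKM, and Acsl1, which activates fatty acids, was at 2.27 and 5.09 FPKM. Fasn, fatty acid synthase, at 19.3 and 20.6 FPKM, and Acaca, acetyl-CoA carboxylase, at 4.71 and 5.20 FPKM, were within 1.25-fold.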
